A study of Mus musculus with 6 samples.

Results

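The genes described here are 9 receptors for the cytokines that govern blood cell production: Kit, Flt3, Csf1r, Csf2ra, Csf2rb, Csf3r, Il3ra, Il7r and Il6ra. They were chosen by name as a family, and all 9 were found among the 14455 gene symbols listed in any of the 4 RNA libraries. Total RNA was sequenced from LSK cells of mouse bone marrow, which lack lineage markers, carry Sca-1 and c-Kit and include the blood stem cells and multipotent progenitors. The 4 groups, with 1 library each, were old KO and old WT, taken 8 months after pI-pC, and young KO and young WT, taken 4 weeks after it. KO stands for Setd2 KO, an inducible deletion of the gene for the enzyme that trimethylates lysine 36 of histone H3, and WT for the wild-type genotype.

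All 4 groups were of C57BL/6 background, and the time of each is counted from pI-pC, a double-stranded RNA that triggers an interferon response. The labels name neither the Cre driver nor the number of animals behind a library, and give no age of the mice themselves. The 2 bisulfite sequencing samples of young cells were not analysed here. With 1 library per group there is no replicate check, no SD and no p-value, and every difference below is a difference between libraries. In bulk RNA, fewer cells of a type and less RNA per cell cannot be told apart.

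Cytokine receptors carry growth, survival and lineage signals from the marrow environment into the cell. Kit, Flt3 and Csf1r are receptor tyrosine kinases of a common class, each with a kinase of its own that is switched on when the ligand pairs receptors. The other members belong to the cytokine receptor families without a kinase and signal through JAK kinases and STAT factors. Many of them work as a ligand-specific alpha chain with a shared signalling chain. In mice GM-CSF is bound by Csf2ra and IL-3 by Il3ra, both with the shared chain Csf2rb. Stem cell factor acts through Kit on stem and progenitor cells, Flt3 marks multipotent and lymphoid-primed progenitors, and Csf1r, Csf3r and Csf2ra serve the monocyte and granulocyte lineages.

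Values are scaled FPKM, RNA abundance per transcript length and sequencing depth set to a common level across libraries, so levels of different genes can be compared per length. Setd2 itself stood at 15.5 in old KO and 15.3 in old WT, and at 12.4 in young KO and 14.1 in young WT. Since RNA can remain from exons outside a deletion, these levels over the whole gene do not check the labels. All 15 listed stem and multipotent progenitor markers were found in every library, and Ly6a, which encodes Sca-1, stood at 4.18 and 8.80 in old KO and WT and at 3.17 and 4.86 in young KO and WT. The old pair differed from the young pair in sex-linked RNA, with Xist at 279 and 291 in old KO and WT and listed in neither young library. Eif2s3y, on the Y chromosome, stood at 11.9 and 9.91 in young KO and WT and was listed in neither old library. Age and sex-linked content can therefore not be told apart in any comparison of old with young cells.

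Depth was read from the spacing of low values, which gives 18.1 and 17.9 counted units per FPKM and kilobase in old KO and WT and 9.04 and 9.58 in young KO and WT. These are rough estimates from genes with loci under 1500 bp, with locus length taken for transcript length. Only 61.8% to 70.6% of the values in a library lay within 0.02 of a whole step. For a transcript of 2 kb, counting error alone would be 5.72% to 11.6% at the level of Il7r, the lowest member, and 2.53% to 3.26% at that of Kit. Whether the unit is a read or a fragment is not known, and these errors cover counting only.

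Kit, the receptor of stem cell factor and part of the LSK gate, stood at 41.1 in old KO, 44.5 in old WT, 52.9 in young KO and 61.0 in young WT. It is encoded on chromosome 5, from 75574916 to 75656722 in mm10. Both KO libraries lay slightly below their WT library and both old libraries below both young ones. Because Kit protein was used to sort the cells, its level here is that of cells already chosen for it.

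Flt3, the receptor of FLT3 ligand (chromosome 5, 147330741 to 147400489), stood at 64.5 in old KO, 55.6 in old WT, 38.6 in young KO and 47.7 in young WT. Its old libraries lay above its young ones, the opposite order to Kit. Flt3 was thus the highest of the 9 receptors in both old libraries, and Kit in both young ones. Only 3.38% of the genes listed for old KO stood above Flt3, and 2.74% of those listed for young WT stood above Kit.

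Csf1r, which binds M-CSF and IL-34 (chromosome 18, 61105572 to 61132149), had the widest range of the family. It stood at 29.1 in old KO, 8.31 in old WT, 4.92 in young KO and 8.91 in young WT. The WT libraries of the 2 ages were close to each other, and the KO libraries lay above WT in old and below WT in young cells. In the order of levels it was the fourth of the 9 receptors in old KO and the seventh in each of the other libraries. The end of its locus overlaps that of Hmgxb3, and reads of overlapping genes were not separated here. Hmgxb3 stood at 17.5, 17.98, 17.97 and 16.8 in old KO, old WT, young KO and young WT, and differed by no more than 0.09 on the log2 scale between KO and WT at either age.

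Csf2ra, the GM-CSF binding chain (chromosome 19, 61224402 to 61228418), stood at 31.3 in old KO and 16.4 in old WT, and at 17.4 in both young KO and young WT. Old KO was therefore the single high library, and the other libraries were nearly level. Il3ra, the IL-3 binding chain (chromosome 14, 14346495 to 14355490), stood at 19.3 in old KO and 14.1 in old WT, and at 17.3 in young KO and 11.8 in young WT. Each KO library lay above its WT library.

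Csf2rb, the chain shared by the receptors for GM-CSF, IL-3 and IL-5 (chromosome 15, 78325990 to 78351000), stood at 26.7 in old KO, 13.8 in old WT, 25.6 in young KO and 31.2 in young WT. Here old WT was the single low library. Its neighbour Csf2rb2, a mouse paralog that serves IL-3 alone, lies 20386 bp away and stood at 5.83 in old KO, 1.73 in old WT, 8.48 in young KO and 9.94 in young WT. The genes are near-identical copies in part, so how reads were divided between them is uncertain, but old WT was the lowest library for each. Il5ra, the alpha chain for IL-5, was listed only in old WT, at 0.671.

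Csf3r, the G-CSF receptor that acts as a pair of like chains (chromosome 4, 126024550 to 126044440), stood at 26.6 in old KO and 20.4 in old WT, and at 20.0005 in young KO and 27.0 in young WT. Its range over the libraries, 0.42 on the log2(FPKM + 1) scale, was the narrowest of the 9. Old KO and young WT were nearly level, as were old WT and young KO.

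Il6ra, the IL-6 binding chain (chromosome 3, 89864059 to 89913196), stood at 9.67 in old KO and 6.41 in old WT, and at 4.53 in young KO and 5.57 in young WT. Il7r, the IL-7 receptor alpha chain of lymphoid progenitors, which also serves TSLP (chromosome 15, 9506161 to 9529876), stood at 8.63 in old KO and 5.01 in old WT, and at 4.36 in young KO and 3.67 in young WT. Il7r and Il6ra were the lowest members in every library. For Il7r the old KO library was the highest and young WT the lowest, and 36.8% and 61.6% of the genes listed in those libraries stood above it.

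**Figure D1:**
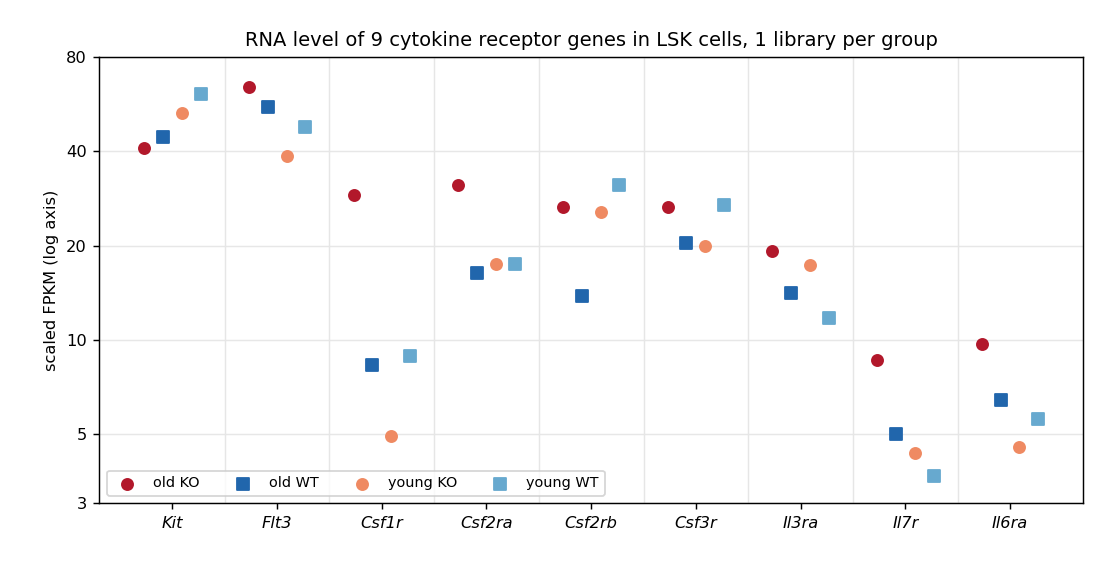
Scaled FPKM (vertical log axis) of the 9 receptor genes in old KO, old WT, young KO and young WT, 1 point per library and no replicates. Old KO is the highest library for every gene but Kit, Csf2rb and Csf3r, and Csf1r at 29.1 in old KO stands far above its other points.

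The sequences before the start sites are shown for Csf2ra and Il7r, which were at least 1.5-fold higher in old KO, and, for contrast in the motif below, for Csf3r, which has the most matches, and Flt3, which has none. RefSeq promoters (GRCm38.p6, the build of the files) were matched by symbol for 7 of the 9 members, all but Csf1r and Csf2rb. Each run gives the 250 bases before the RefSeq start, 5' to 3' on the strand of the gene. The RefSeq start of Csf3r lies inside the locus as the files give it, and so do 3 of its 4 matches. Capitals mark AGGAAG or its reverse complement CTTCCT, the core bound by ETS factors such as PU.1, the product of Spi1. The windows are chr19:61228419-61228668 on the minus strand for Csf2ra, chr15:9529877-9530126 on the minus strand for Il7r, chr4:126024409-126024658 on the plus strand for Csf3r and chr5:147400490-147400739 on the minus strand for Flt3.
Csf2ra: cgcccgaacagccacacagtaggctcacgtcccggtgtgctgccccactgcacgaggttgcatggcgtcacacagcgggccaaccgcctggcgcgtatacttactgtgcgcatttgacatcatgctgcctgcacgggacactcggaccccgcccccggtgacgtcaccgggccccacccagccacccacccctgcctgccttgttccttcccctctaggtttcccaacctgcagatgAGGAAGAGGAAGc
Il7r: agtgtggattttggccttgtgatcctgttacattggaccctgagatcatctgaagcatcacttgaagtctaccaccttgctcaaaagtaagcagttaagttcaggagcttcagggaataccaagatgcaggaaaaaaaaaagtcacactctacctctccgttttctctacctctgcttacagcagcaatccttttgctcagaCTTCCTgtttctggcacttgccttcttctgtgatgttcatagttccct
Csf3r: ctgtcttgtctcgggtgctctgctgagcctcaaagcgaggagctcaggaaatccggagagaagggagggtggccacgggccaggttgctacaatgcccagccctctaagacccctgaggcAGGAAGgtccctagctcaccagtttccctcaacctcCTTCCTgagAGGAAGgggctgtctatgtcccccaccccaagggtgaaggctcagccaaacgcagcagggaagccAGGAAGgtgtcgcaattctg
Flt3: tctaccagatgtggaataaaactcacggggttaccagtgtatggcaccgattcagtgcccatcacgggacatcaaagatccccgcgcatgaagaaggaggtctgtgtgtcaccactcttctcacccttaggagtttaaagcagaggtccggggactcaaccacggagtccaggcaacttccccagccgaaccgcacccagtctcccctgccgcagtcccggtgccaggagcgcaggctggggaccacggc

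AGGAAG, searched on both strands, was found in 6 of the 7 promoters, where 29.2% of all 27025 promoters of the same length held it. Csf2ra had 2 copies side by side, beginning 13 and 7 bases before the start, Csf3r had 4, and Kit, Il3ra, Il7r and Il6ra had 1 each. The match of Il7r began 48 bases before its start. The motif was chosen after the sequences were seen, and a match is a description of letters, not of a bound site. Of the other motifs searched on both strands, TTGCNNAA of C/EBP factors was in 2 of 7 (Il3ra and Il7r, 9.55% of all promoters) and AGATAA of GATA factors in 1 (Il6ra, 10.3%). TGTGGT of RUNX factors and TGANTCA of AP-1 were in none of the 7, against 14.2% and 6.87% of all promoters. No AGGAAG match overlapped a match of another motif in these windows. GC content ran from 44.0% in Il7r to 72.4% in Il3ra, where the median over all promoters was 52.0%, and CpG count from 1 in Il7r to 27 in Il3ra.

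The comparison of old KO with old WT asked how Setd2 KO was accompanied by differences in receptor RNA 8 months after pI-pC. Most of the receptors were higher in old KO: 8 of 9 lay above 0, and only Kit lay below, at -0.11 on the log2(FPKM + 1) scale. Csf1r was the largest, at 1.69, which corresponds to a 3.50-fold ratio of scaled FPKM. Csf2rb followed at 0.91 and Csf2ra at 0.90, each close to a doubling, with ratios of 1.94 and 1.91. Il7r differed by 0.68, Il6ra by 0.53, Il3ra by 0.42, Csf3r by 0.37 and Flt3 by 0.21.

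Past 2-fold was 1 member, Csf1r, where 1.63% of all 12478 measured genes were at least 2-fold higher in old KO. At least 1.5-fold higher were 4 of 9 members, Csf1r, Csf2rb, Csf2ra and Il7r, where 5.51% of all measured genes were. None of the 9 was 1.5-fold lower, against 6.48% of all measured genes, or 2-fold lower, against 2.66%. The members' median was 0.53 beside 0.00 for all measured genes. Of all measured genes, 0.369% were at least as much higher as Csf1r, 2.09% as much as Csf2rb, 2.16% as much as Csf2ra and 4.03% as much as Il7r. For Kit, 33.6% of genes were at least as much lower, so its difference was ordinary among genes.

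The same comparison in young cells, 4 weeks after pI-pC, gave a different picture. Of the 9 receptors 6 lay below 0 in young KO. Csf1r was the farthest, at -0.74, and Csf3r followed at -0.42, Flt3 at -0.30, Csf2rb at -0.27, Il6ra at -0.25 and Kit at -0.20. Il3ra, at 0.52, and Il7r, at 0.20, lay above 0, and Csf2ra was at 0.00.

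In young KO 0 of 9 members were 2-fold higher or lower, where 1.02% and 0.701% of the 12409 measured genes were. Csf1r alone was 1.5-fold lower, against 3.64% of all measured genes, and 0 of 9 were 1.5-fold higher, against 4.13%. The members' median was -0.25 beside 0.00 for all genes. Of all measured genes 1.75% were at least as much lower as Csf1r and 5.22% at least as much higher as Il3ra. Of all genes 126 were 2-fold higher and 87 lower in young KO, and without scaling 99 were higher and 118 lower, with a median of -0.10.

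**Figure D2:**
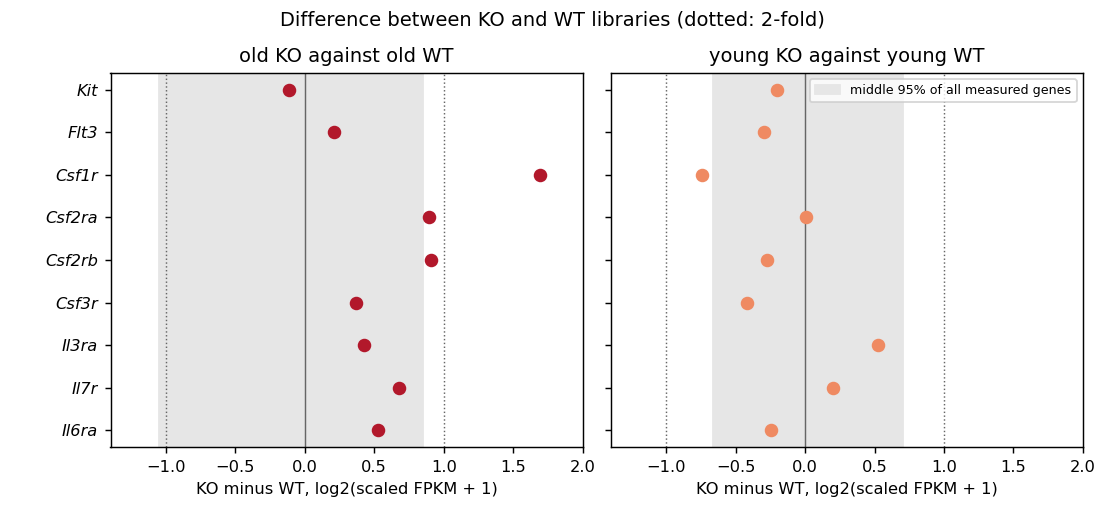
Difference of KO from WT on the log2(scaled FPKM + 1) scale (horizontal axis) for each receptor, with old KO against old WT on the left and young KO against young WT on the right. The grey band holds the middle 95% of all measured genes, and Csf1r lies outside it in opposite directions, at 1.69 in old and -0.74 in young cells.

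Setting the KO differences of old and young cells side by side, 5 receptors had opposite signs: Csf1r (1.69 in old, -0.74 in young), Csf2rb (0.91, -0.27), Csf3r (0.37, -0.42), Il6ra (0.53, -0.25) and Flt3 (0.21, -0.30). Il3ra was nearly alike at both ages, at 0.42 in old and 0.52 in young cells, and Kit was slightly lower at both, at -0.11 and -0.20. The gap between the ages was 2.44 for Csf1r, and 0.126% of 11873 genes measured in both comparisons had a gap at least as large in that direction. It was 1.18 for Csf2rb, as large in 1.79% of genes, 0.89 for Csf2ra, as large in 3.55%, and 0.79 for Csf3r, as large in 4.77%. The median gap over the 9 was 0.78, beside -0.00 over all genes. With 1 library in each group these gaps were not tested.

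Old cells were compared with young cells within each genotype. In KO cells 5 of 9 were at least 1.5-fold higher in old cells, where 12.4% of the 12534 measured genes were: Csf1r by 2.35, Il6ra by 0.95, Il7r by 0.85, Csf2ra by 0.81 and Flt3 by 0.73 on the log2 scale. Csf1r alone was past 2-fold, against 4.95% of all genes. None of the 9 was lower in old KO cells by 1.5-fold, against 8.01%, or by 2-fold, against 2.24%. Of all genes 620 were 2-fold higher and 281 lower in old KO cells, and with upper-quartile scaling 525 were higher and 368 lower. In WT cells 0 of 9 were 1.5-fold higher in old cells, against 9.93% of the 12569 measured genes, or 2-fold higher, against 4.22%. Csf2rb, at -1.13, was the only member 2-fold lower, against 1.33% of genes, or 1.5-fold lower, against 5.88%, and Kit, at -0.45, and Csf3r, at -0.39, came next. The KO and WT comparisons of age share no library, but each shares a library with the comparisons of KO and WT above, so the low old WT value of Csf2rb enters both its differences.

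Ratios of genes within a library do not depend on scaling between libraries. The ratio of Csf2ra to Csf2rb, the GM-CSF binding chain to its partner, was 1.18 in old KO and 1.19 in old WT, and 0.680 in young KO and 0.558 in young WT. In old cells the ratio was level between genotypes although each chain was higher in KO. The ratio of Il3ra to Csf2rb was 0.723 in old KO and 1.03 in old WT, and 0.675 in young KO and 0.377 in young WT. For IL-3 the ratio was lower in KO at the later time and higher in KO at the earlier one.

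Il7r pairs with Il2rg, the common gamma chain, for IL-7 and with Crlf2 for TSLP. Il2rg stood at 14.04, 13.1, 11.3 and 13.5 in old KO, old WT, young KO and young WT, and Crlf2 at 11.7, 14.1, 9.45 and 10.6. The ratio of Il7r to Il2rg was 0.615 in old KO and 0.383 in old WT, and 0.385 in young KO and 0.272 in young WT, so the alpha chain was higher relative to its partner in KO at both ages. Il6st, the gp130 chain that signals for Il6ra, stood at 11.5, 7.55, 6.86 and 6.67, and the ratio of Il6ra to Il6st was 0.839, 0.849, 0.660 and 0.836 in the same order of libraries. Young KO alone was low in that ratio. Il6st itself was 0.55 higher in old KO than in old WT on the log2 scale, and 6.22% of genes were at least as much higher.

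The ratio of Kit to Flt3 was 0.638 in old KO and 0.80 in old WT, and 1.37 in young KO and 1.28 in young WT. It was below 1 in both old libraries and above 1 in both young ones. The ratio of Csf1r to Csf3r, a monocyte over a granulocyte receptor, was 1.09 in old KO, against 0.408 in old WT, 0.246 in young KO and 0.329 in young WT.

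**Figure D3:**
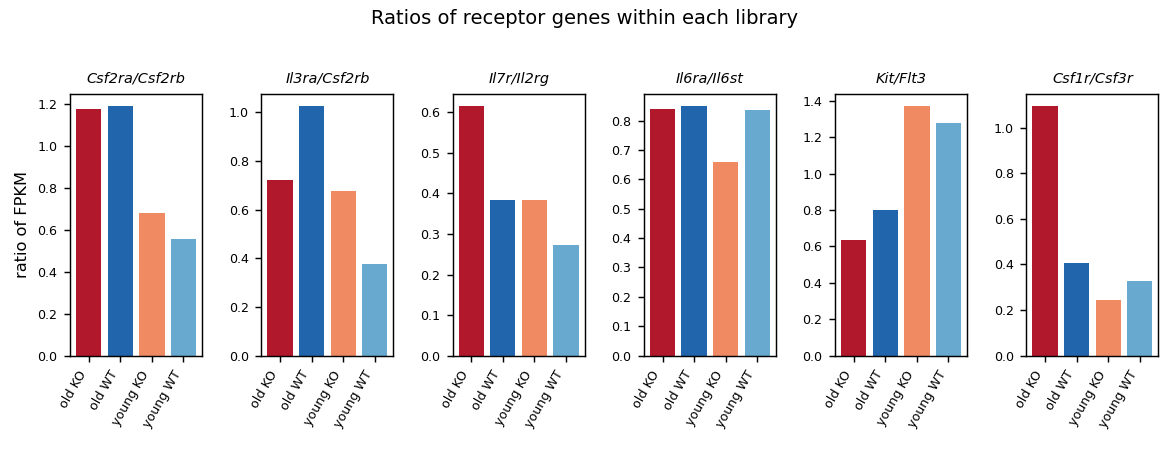
Ratio of FPKM (vertical axis from 0, own scale in each panel) of pairs of receptor genes within each library, 1 bar per library and no replicates. The ratio of Csf1r to Csf3r is 1.09 in old KO and at most 0.408 elsewhere, whereas that of Csf2ra to Csf2rb is level between old KO, at 1.18, and old WT, at 1.19.

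Of 10 ligands of the receptors, 5 were listed at 0.5 FPKM or more in at least 1 library. Il34, Csf2, Csf3, Il3 and Il7 were listed in no library. Kitl and Il6 were listed in young KO alone, at 0.662 and 1.27. Flt3l, the ligand of Flt3, stood at 4.68 in old KO, 4.19 in old WT, 6.40 in young KO and 5.48 in young WT. Csf1, a ligand of Csf1r, stood at 1.93, 1.49, 3.61 and 3.08, and Tslp at 0.649, 0.956, 0.597 and 0.780, in the same order.

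Among 37 other cytokine receptors, 31 were measured in the old comparison, and their median difference was 0.16. Lifr, the leukemia inhibitory factor receptor, was 2-fold higher in old KO, at 2.98 against 0.692 in old WT. Epor, the erythropoietin receptor, was 2-fold lower, at 6.55 in old KO against 16.5 in old WT. In young cells Epor stood at 15.2 in KO and 9.07 in WT. There none of 29 measured was 2-fold changed on the log2(FPKM + 1) scale, with a median of -0.11. Of all measured genes 1.02% were 2-fold higher and 0.701% lower in young KO. By ratio of scaled FPKM, Il1rl1, at 2.06, and Il12rb1, at 0.445, were past 2-fold in young cells. At least 1.5-fold higher in old KO were 3 of these 31 receptors, 4 of the 9 members and 5.51% of all measured genes. These shares were not tested against each other.

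Genes that carry the signal inside the cell were read from a list of JAK and STAT factors, adaptors and kinases. Of 41 measured receptor-proximal genes 0 were 2-fold changed at either age on the log2(FPKM + 1) scale. Their medians were 0.11 in old and -0.01 in young cells. Few of all measured genes were 2-fold changed either, 1.63% higher and 2.66% lower in old KO, and 1.02% and 0.701% in young KO. Jak2, the kinase that serves Csf2rb among others, stood at 19.8 in old KO and 22.0 in old WT, and at 24.1 in young KO and 19.0 in young WT. Stat5b, a main STAT factor downstream of IL-3 and GM-CSF, stood at 35.5 in old KO and 34.1 in old WT, and at 37.2 in young KO and 36.1 in young WT. The adaptor gene Grb2 stood at 16.2 in young KO and 33.3 in young WT, a ratio of 0.488, which is a difference of -0.99 on the log2(FPKM + 1) scale and there falls short of the 2-fold line. Jak2, Stat5b and Grb2 were chosen after their values were seen.

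Of 32 measured negative regulators, Cbl, a ubiquitin ligase that sends Kit, Flt3 and Csf1r for degradation, was 2-fold lower in old KO, at 8.51 against 18.2 in old WT, and stood at 23.4 in young KO and 23.5 in young WT. Spry1, an inhibitor of growth factor signalling, stood at 3.66 in young KO and was not listed in young WT. The medians were 0.01 in old and 0.02 in young cells. Of 24 measured genes known to respond to STAT5 or ERK signals, 2 were 2-fold higher in old KO, where 1.63% of all measured genes were. Osm, the cytokine oncostatin M, stood at 9.84 in old KO and 2.61 in old WT, and Id1, an inhibitor of basic helix-loop-helix factors, at 11.0 and 3.35. In young cells Ccnd3, a cyclin of the G1 phase, stood at 7.39 in KO and 2.97 in WT, and Egr1, an immediate early factor, at 4.74 and 10.6. The medians of that list were 0.19 in old and -0.04 in young cells.

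Transcription factors known to control these receptors in blood cells formed the next list. Of 23 measured, 4 were 2-fold higher in old KO: Irf8, a factor of monocytes, at 37.5 against 11.7 in old WT, Spi1 at 24.3 against 11.1, Cebpb at 28.7 against 13.1 and Klf4 at 27.2 against 12.7. Of all measured genes 1.63% were 2-fold higher there. Irf8 stood at 10.5 in young KO and 12.7 in young WT, and Spi1 at 11.7 and 14.9. None of the 23 was 2-fold lower in old KO on the log2(FPKM + 1) scale, against 2.66% of all measured genes. The list median was -0.04. By ratio of scaled FPKM, Ets1, at 0.402, and Gata1, at 0.491, were more than 2-fold lower. Ebf1, unlisted in old WT, was past 2-fold upward by ratio, at 2.45. At least 1.5-fold higher in old KO were 5 of the 23, against 5.51% of all measured genes, and 3 were 1.5-fold lower, against 6.48%. Klf4 is also in the monocyte marker list below and Irf8 in that of granulocyte-monocyte progenitors. In young cells 0 of 22 were 2-fold changed on the log2(FPKM + 1) scale, although the ratio of Ets1 in KO to WT was 2.44. Of all measured genes 1.02% were 2-fold higher and 0.701% lower in young KO.

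**Figure D4:**
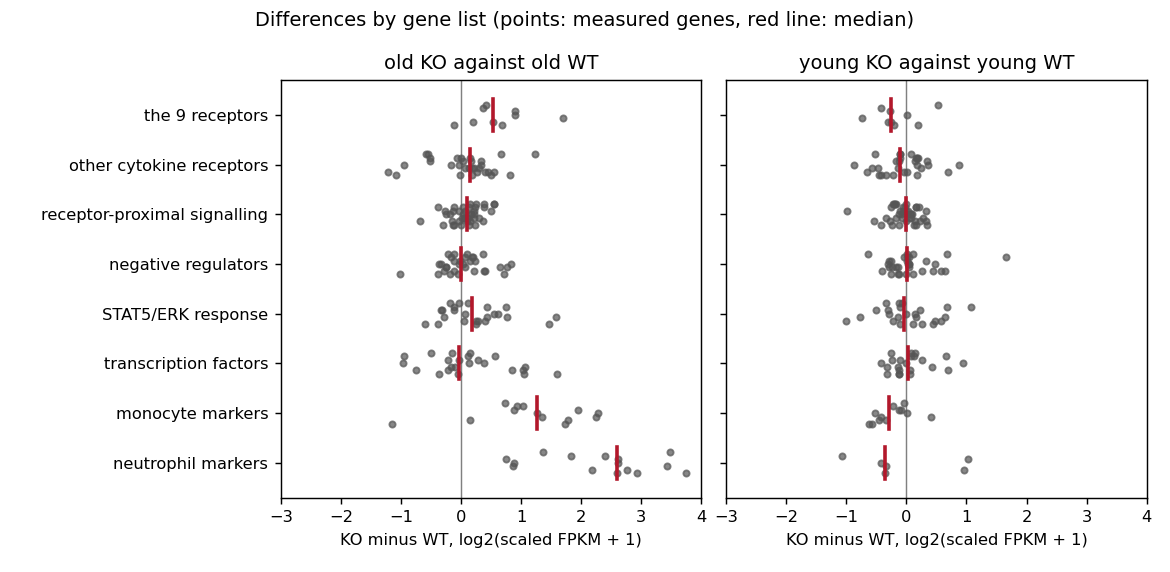
Differences of KO from WT on the log2(scaled FPKM + 1) scale (horizontal axis) for the measured genes of 8 lists, old cells on the left and young cells on the right. Points are genes and red lines are list medians, which are 0.53 for the receptors, 1.26 for monocyte markers and 2.60 for neutrophil markers in old cells.

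Markers of mature myeloid cells were higher in old KO, which was also the highest library for Flt3, Csf1r, Csf2ra, Il3ra, Il7r and Il6ra. Csf3r, a receptor of granulocytes, was highest in young WT, as were Csf2rb and Kit. Of 15 monocyte and macrophage markers 13 were measured in the old comparison, 8 of them 2-fold higher and 1 2-fold lower in old KO, and their summed level was 551 in old KO, 169 in old WT, 153 in young KO and 186 in young WT. All 15 neutrophil markers lay above 0 in that comparison, 12 of them by 2-fold, and their sum was 416, 52.6, 12.4 and 12.8 in the same order. Of all measured genes 1.63% were 2-fold higher and 2.66% 2-fold lower in old KO. In the young libraries the neutrophil genes S100a9, Camp, Ltf, Ngp, Mmp9, Ly6g and Cd177 were unlisted, as was C1qc of the monocyte list. The 12 granulocyte-monocyte progenitor markers summed to 2486, 1585, 1143 and 1248. The part of these cells in the receptor differences was not tested.

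Markers of other lineages also differed between the libraries. The 13 listed B and plasma cell markers summed to 230.5 in old KO, 2238 in old WT, 72.0 in young KO and 63.5 in young WT, and antigen receptor segments held 4.67%, 26.8%, 0.888% and 0.637% of the summed FPKM. The 19 erythroid markers summed to 281, 397, 894 and 409, and the mast cell and basophil markers to 128, 291, 579 and 635. Of these cells both carry IL-3 receptors, and mast cells carry Kit. In that sum Prss34 alone stood at 11.0, 50.2, 274 and 279. Erythroid markers were split between old KO and old WT, with 7 above 0 and 12 below, 3 of them 2-fold higher and 4 lower. Hbb-bs stood at 28.1 in old KO and 12.2 in old WT, and Car1 at 52.6 and 123. Mcpt4 and Tpsab1, markers of mature mast cells, were listed in no library. Stem and multipotent progenitor markers summed to 146, 151, 177 and 191, and megakaryocyte and platelet markers to 56.5, 74.2, 91.9 and 99.3. The mast cell and basophil, stem and megakaryocyte sums each had the same order of libraries as Kit. Single mast cell and basophil markers were split in young cells, where 7 of 12 measured lay above 0 in KO and 5 below. Their median was 0.25, whereas Kit lay below 0. Prg2 stood at 118 in young KO and 190 in young WT, and Cpa3 at 74.5 and 62.4. The 14 dendritic cell markers other than Flt3, which these cells carry, summed to 153, 147, 66.6 and 78.6, the same order of libraries as Flt3. In old against young KO 8 of 10 measured were at least 1.5-fold higher, where 12.4% of all genes were. Zbtb46 was 1.5-fold lower there, at 0.558 in old and 1.60 in young KO, where 8.01% of all genes were lower. Between old KO and old WT 5 of 10 dendritic markers lay above 0 and 5 below. Of that list Siglech, Batf3 and Xcr1 were listed in no library. T and NK cell markers summed to 70.5, 51.1, 60.9 and 71.8, and stromal and endothelial markers to 22.4, 22.3, 35.5 and 33.0. Much of the T and NK sum was Nkg7, at 38.3, 33.6, 47.9 and 58.5. Between old KO and old WT 9 of 10 measured T and NK markers lay above 0 and 1 below, with a median of 0.55. Cd3e, Cd3d, Cd3g, Cd8b1 and Klrb1c were listed in neither young library. The 13 lymphoid progenitor markers other than Flt3 and Il7r summed to 175, 207, 99.6 and 155, an order that Il7r did not follow. Single lymphoid markers were split between old KO and old WT, with 7 of 12 measured above 0, 5 below and a median of 0.24. In old KO 13 of them were listed and in old WT 8. Cd79a, also in the B and plasma cell list, stood at 3.84 in old KO and 23.4 in old WT. The part of each of these groups in the receptor values was not tested.

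The genes whose pattern over the 4 libraries was nearest to that of a member were sought for the 3 members with a range of 1 or more on the log2 scale, among 7071 genes. The measure was the root mean square distance between centred log2 values, over 4 libraries, so many genes lie near any pattern. For Csf1r they were the chemokine gene Ccl4 at a distance of 0.19, Irf8 at 0.24 and the macrophage gene Mpeg1 at 0.25. Mpeg1 stood at 74.8 in old KO, 21.0 in old WT, 20.9 in young KO and 25.9 in young WT. The nearest member to Csf1r was Il6ra, at 0.53. For Csf2rb the nearest genes were Fam3c at 0.04, Rp2 at 0.06 and Cept1 at 0.09, and for Il7r they were Hist1h3g at 0.01, Bphl at 0.04 and Pim1, a kinase gene that responds to cytokines, at 0.04. Pim1 stood at 238 in old KO, 154 in old WT, 138 in young KO and 125 in young WT.

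Neighbouring receptor genes were compared with their members. Pdgfrb, a receptor tyrosine kinase of the same class, lies 20510 bp away and stood at 7.11 in old KO, 6.24 in old WT, 9.37 in young KO and 14.4 in young WT. Its difference between old KO and old WT was 0.16, beside 1.69 for Csf1r, and that between young KO and young WT was -0.57, beside -0.74 for Csf1r. Pdgfrb was singled out for its position after the values were seen. At the neighbouring pair Csf2rb and Csf2rb2 the values went the same way, with 1.32 for Csf2rb2 and 0.91 for Csf2rb in old cells and -0.21 and -0.27 in young cells.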

How the data were processed

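RNA of sorted LSK cells was measured in 4 libraries, 1 per group, and groups were taken from the sample titles. The authors deposited 1 FPKM per gene, per the file headers, for 13182 to 13327 genes a library, each at 0.5 or more. The build was mm10 (GRCm38), per the submitters' processing notes, which also name StringTie 1.3.0, HISAT2 2.0.4, Trimmomatic, FastQC and CASAVA without their roles. Strand handling is not known. Of 14468 gene identifiers 14382 were in the table of names, 18 symbols that had turned into dates were restored, and rows of a symbol were summed.

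Scaling used the median of ratios over 10935 genes at 1 or more in all 4, and the factors were 0.979, 0.982, 0.981 and 1.06 for old KO, old WT, young KO and young WT. An unlisted gene was set to the lowest value its file lists, so a difference against it is a lower bound. All differences are between log2(FPKM + 1) values and understate those of low genes. Measured genes had 1 or more in either library compared. The steps were tested on simulated data. Python 3.11.15, numpy 2.4.6 and pandas 2.3.3 were used.

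The members and gene lists were chosen with earlier results of these data known. All members were named, and beyond them the partner chains, the ligands, up to 6 genes a list past 2-fold, and the 3 genes nearest in pattern to each member with a range of 1 or more. Alternatives covered scaling, pseudocount, minimum value and the value of unlisted genes. Some genes covered by the naming rule are not reported here.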

Additional observations from a re-analysis of the deposited data

Results flagged for a closer look

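For 5 receptors the difference of KO from WT had opposite signs in old and young cells, and none of these differences between the ages was tested. The gap, old minus young on the log2(FPKM + 1) scale, was 2.44 for Csf1r, which stood at 29.1 in old KO and 8.31 in old WT and at 4.92 in young KO and 8.91 in young WT. It was 1.18 for Csf2rb, for which old WT was the low library at 13.8. The gap was 0.79 for Csf3r, 0.78 for Il6ra and 0.51 for Flt3. Sex-linked RNA differed between the old and young pairs, and its part in these gaps was not tested.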

How the results depend on the processing

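The differences of the 9 receptors were recomputed under 8 alternatives: no scaling, upper-quartile scaling, scaling without antigen receptor segments, predicted, small RNA and mitochondrial genes, pseudocounts of 0.1 and 5, no minimum and a minimum of 5, and unlisted genes at 0. Csf1r in old cells stayed between 1.36 and 1.80 and past 2-fold in all of them, and between -0.85 and -0.49 in young cells. Csf2ra in young cells had no direction, at 0.00 and at -0.11 without scaling, and Csf2rb in old against young KO turned to -0.05 with upper-quartile scaling. In all other comparisons each receptor kept its sign. With a pseudocount of 5 the members' median was 0.36 for old KO against old WT, 0.54 for old against young KO and 0.51 for the gap between the KO differences, Csf1r in young cells was no longer 1.5-fold lower, leaving 0 members, and Csf2rb in old against young WT, at -0.95, was no longer 2-fold lower, leaving 0. At the same pseudocount Il7r, at 0.45 in old KO against old WT and 0.54 in old against young KO, was no longer 1.5-fold higher, leaving 3 and 4 members. With a pseudocount of 0.1, Il6ra reached 0.59 in old KO against old WT, giving 5 members past 1.5-fold, and Il6ra in old against young KO reached 1.08, giving 2 members past 2-fold. The members' median for old against young WT was -0.19 without scaling, where that of all genes was -0.11, and for old against young KO 0.62 with upper-quartile scaling, where that of all genes was -0.10. Counts of all genes past 2-fold depended most on the pseudocount, with 203 higher and 332 lower in old KO becoming 433 and 639 at 0.1 and 54 and 207 at 5, and 126 higher and 87 lower in young KO becoming 361 and 272, and 32 and 12. Il7r in young cells could not be given at a minimum of 5. No paired analysis was possible because each group had 1 library and the labels give no replicate numbers. Without scaling the young counts were 99 higher and 118 lower, the opposite balance. Depth limits the receptors of low level such as Il7r, and without replicates no difference can be set against variation between mice.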
